A study of Kluyveromyces marxianus with 6 samples.

Results

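Of the 5785 mRNA transfrags measured in the yeast *Kluyveromyces marxianus*, 103 kept about the same level from early-exponential (EE) to mid-exponential (ME) growth and were then higher in late-exponential (LE) growth. A transfrag is a stretch of a contig covered by reads of 1 strand, so that a gene can hold several. The 103 mRNAs were chosen on their levels in 4 steps. Their mean level over the 3 growth phases was at least 10, their EE level was above 4.00, (ME + 1)/(EE + 1) lay between 1/1.5 and 1.5, and (LE + 1) was at least 1.8 times (ME + 1). The levels of these mRNAs and the changes between growth phases are therefore given as a description and were not tested. All RNA classes together counted 14298 transfrags.

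Growing yeast cells spend much of their transcription on making ribosomes. The factors that assemble ribosomes, but are not part of the finished particle, are encoded by mRNAs that in *Saccharomyces cerevisiae* follow the supply of sugar and nitrogen. When a culture becomes dense, yeast cells also lean more on the vacuole, the acidic compartment that stores and recycles nutrients, and on peroxisomes, where fatty acids are broken down.

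The cells were strain ATCC 36907 (KM7), grown with shaking at 30 °C on dextrose in a yeast nitrogen base medium with added amino acids but no uracil. The culture's optical density was near 3 in EE, near 7 in ME and near 10 in LE, with 2 biological replicates in each growth phase and no other treatment. After removal of rRNA, 6 strand-specific libraries were sequenced. The deposited levels are normalized read signals that are not scaled by transfrag length, and each is the authors' mean over both libraries of a growth phase, so no p-value was computed and the spread between replicates is unknown, except for a few low EE levels given below. Below, an mRNA is said to have risen where LE was 1.8-fold above ME or more, and to have fallen where it was below by as much. Counting errors describe only how precisely the number of reads fixes a level. The levels come from whole cultures, in which a change in some cells and a change in every cell cannot be told apart.

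Among the 4021 mRNAs with a mean level of at least 10, 418 (10.4%) rose from ME to LE and 545 (13.6%) fell, and 771 (19.2%) stayed within 1.5-fold from EE to ME. The 103 mRNAs are 2.56% of the 4021 and 13.4% of the 771. The other mRNAs of the 771 include 301 (39.0%) that stayed within 1.5-fold from ME to LE, called flat here, and 166 (21.5%) that fell, called late-falling. The rule used these changes, so nothing is read from these shares. The minimum EE level removed no mRNA that met the other limits. The median log2 change of the 4021 mRNAs was 0.70 from EE to ME and 0.25 from ME to LE. An mRNA with a constant deposited level between EE and ME thus differed from the median mRNA, which was higher in ME, and other scalings pick other mRNAs as constant. Scaling the growth phases by the summed level of all transfrags shifts every log2 change from ME to LE by -0.45, and scaling by mapped reads shifts it by -0.54 and the change from EE to ME by 1.31. These shifts are smaller than the limit of 1.8-fold, so that LE stays above ME for each of the 103 by construction, but only 22 of them were still 1.8-fold higher or more under all 4 scalings tried. None of the 103 met the whole rule when the levels were scaled by mapped reads.

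**Figure D1:**
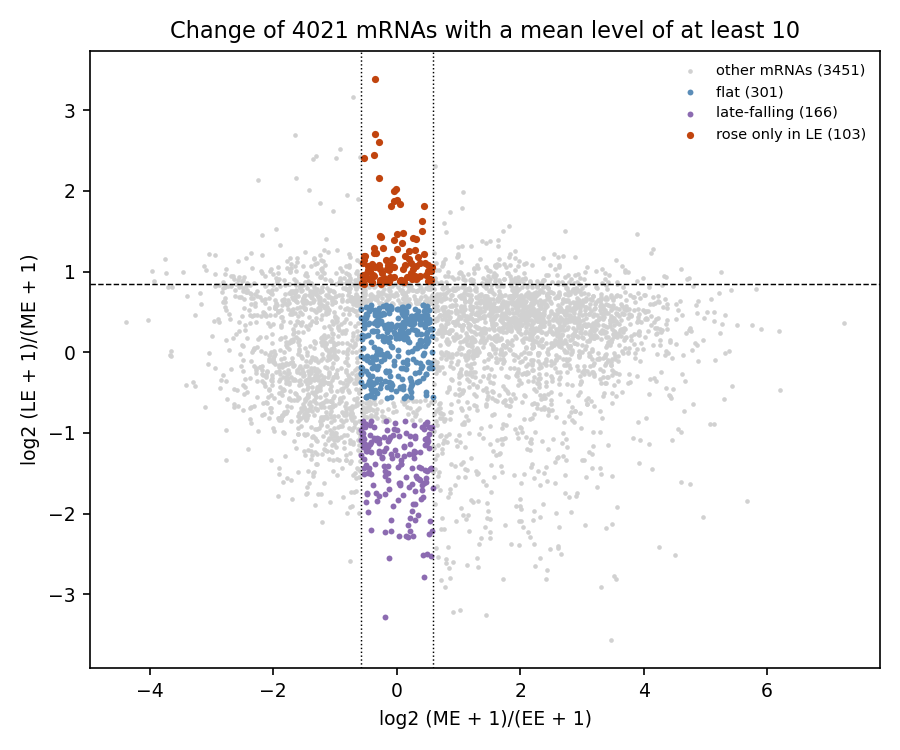
Change of the 4021 mRNAs with a mean level of at least 10, as log2 of (ME + 1)/(EE + 1) on the x axis and log2 of (LE + 1)/(ME + 1) on the y axis, with 1 point per mRNA. The dotted lines mark the 1.5-fold limits, the dashed line marks 1.8-fold, and the 103 mRNAs that rose only in LE fill the space between the dotted lines and above the dashed line, up to a log2 change of 3.39.

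The 103 mRNAs had median levels of 209, 191 and 472 in EE, ME and LE. The lowest levels were 6.12, 6.69 and 15.8 in these growth phases, and the highest were 3978, 2866 and 7103. The group thus covers abundant and rare mRNAs, with 25 at a level of at least 1000 in LE and 14 under 50. Per kb of transfrag, the median level rose from 194 in EE and 177 in ME to 408 in LE, beside 66.3, 161 and 192.5 for the 4021 mRNAs (medians per kb, as deposited). Together the 103 mRNAs held 1.22%, 1.40% and 2.19% of the summed level of all mRNAs in EE, ME and LE.

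The change from ME to LE had a median of 2.09-fold and a range of 1.801-fold to 10.5-fold. It was at least 2-fold for 64 of the 103 mRNAs, at least 3-fold for 14 and at least 5-fold for 5. Most of the group therefore lies close to the limit that defines it. The 95% counting interval of the log2 change lay above 1.8-fold for 57 of the 103 and above 1.5-fold for 95. From EE to ME the level was lower for 60 and higher for 43. For 69 mRNAs the LE level was also at least 1.8-fold above that in EE, as it was for 49.6% of the 4021, a contrast the rule fixes in part. For the 34 others the smallest change was 1.22-fold.

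**Figure D2:**
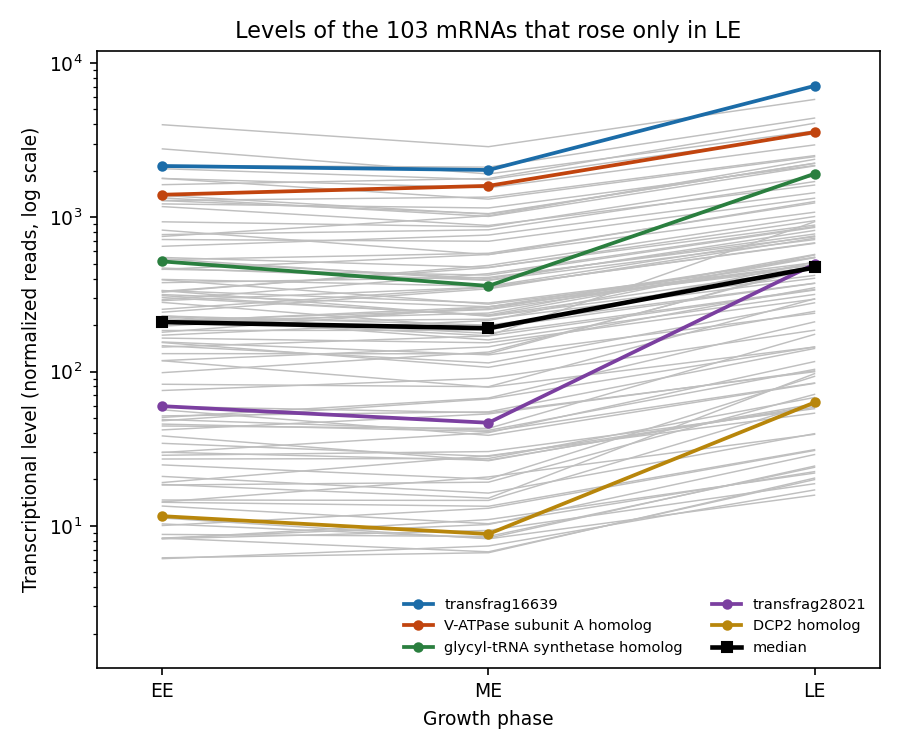
Deposited level (normalized reads, log axis) of the 103 mRNAs in EE, ME and LE, with 1 grey line per mRNA and the authors' mean over 2 libraries at each point. The black line joins the medians of 209, 191 and 472, and 5 mRNAs described in the text are coloured.

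The highest LE level belonged to transfrag16639, on the plus strand of contig 110 (220741 to 223238), where contigs are numbered by the last digits of their names. It had levels of 2148, 2024 and 7103 in EE, ME and LE, a 3.51-fold rise from ME. It is the only one of the 10 mRNAs with the highest LE levels that more than tripled. No gene name was held for it.

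The PRP3 homolog (transfrag08704) had levels of 1626, 1783 and 4067 in EE, ME and LE. Prp3 belongs to the U4/U6 snRNP of the spliceosome. The transfrag spans 97.1% of the gene and rose 2.28-fold from ME to LE. The homolog of subunit A of the vacuolar ATPase (transfrag09502), the catalytic subunit of the proton pump that acidifies the vacuole, went from 1399 and 1597 in EE and ME to 3560 in LE. This was a 2.23-fold rise on a transfrag that spans the whole gene.

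A homolog of INO80, the ATPase of a chromatin remodelling complex, had 2774 in EE, 1907 in ME and 3627 in LE on a transfrag (transfrag07842) that spans 48.0% of the gene. Its ME level was thus the lowest of the 3, near the limit of 1/1.5, and LE was only 1.31-fold above EE. The homolog of YJ66_YEAST (transfrag08967) rose 1.86-fold, from 1284 in EE and 1351 in ME to 2507 in LE.

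The other 5 of the 10 highest mRNAs had no gene name here. Transfrag29079 on contig 114 had 3978, 2866 and 5801 in EE, ME and LE, and transfrag16106 on contig 106 had 2167, 2112 and 4394. Transfrag19813, transfrag24063 and transfrag18267 rose 1.98-fold, 1.90-fold and 1.88-fold from ME to LE. Per kb, transfrag29079 was the most abundant of these 10 in LE, with a level of 4123 per kb, followed by the PRP3 homolog with 3261 per kb.

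The mRNAs with the largest change were mostly less abundant than these. Transfrag28021, on the plus strand of contig 114 (1235181 to 1236083), had levels of 59.6, 46.5 and 497 in EE, ME and LE, a 10.5-fold rise (log2 3.39, counting SE 0.12). No other of the 103 mRNAs reached 7-fold. Next was a transfrag of the DCP2 homolog, the catalytic subunit of the mRNA decapping enzyme, with 11.5, 8.85 and 63.0 in EE, ME and LE (transfrag12087, 6.50-fold, counting SE of log2 0.27). Transfrag25225 followed, with 18.5, 15.1 and 96.8 (6.08-fold), and then transfrag26013, with 221, 170.4 and 935 (5.46-fold).

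The homolog of glycyl-tRNA synthetase, which loads glycine onto its tRNA for translation, was the most abundant of the mRNAs that rose at least 5-fold. Its transfrag01634 had 517 in EE, 359 in ME and 1913 in LE (5.32-fold, counting SE of log2 0.05). A transfrag of the MCM7 homolog, a subunit of the helicase that unwinds DNA at replication forks, rose 4.47-fold from 24.8 and 20.1 in EE and ME to 93.0 in LE. Transfrag27608 rose 4.05-fold, transfrag27264 4.00-fold, transfrag14484 3.69-fold and transfrag03114 3.68-fold.

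The mRNAs of lower level in LE had shorter transfrags and somewhat larger changes, both in part by construction. Levels are not scaled by transfrag length, so short transfrags tend to have low levels. An mRNA whose EE and ME levels lie under the minimum mean level passes it only through a high LE level, which favours larger changes. The 36 mRNAs under a level of 200 in LE had a median length of 466.5 bp and a median change of 2.25-fold, and the 67 others a median length of 1071 bp and a median change of 2.02-fold. Of the 103, 11 had an EE level of at most 12, where the deposited mean could be split into whole reads of both libraries. These 11 rested on 6 to 15 reads in EE, and the HGT1 homolog described below rested on 9. The libraries' own EE levels differed by a median of 2.12-fold and by up to 13.2-fold, for transfrag15419 with 1 read in one library and 7 in the other. With the EE level of either library alone, only 4 of the 11 stayed within 1.5-fold from EE to ME, 2 did so with neither, and 5 with 1 of the libraries. The transfrag of the DCP2 homolog is among these 5, with 7.07 and 16.01 in the EE libraries.

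By function, 43 of the 103 mRNAs lay in 1 of the 1998 annotated genes whose homologs were held here, and 42 had a close named homolog, so the function of the others is unknown here. The share of mRNAs that rose only in LE was 2.69% among the 1559 mRNAs of such a mean level that had a named homolog, near the 2.56% among all. Of 22 lists of genes, 8 held at least 1 of the 103 and 14 held none, and 17 of the 103 were on a list.

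Ribosome biogenesis contributed most, with 7 mRNAs, namely the homologs of *NSA2*, *LTV1*, *UTP23*, *RLP24*, *POL5*, *UTP25* and *BUD21*. It was also the largest list, with 58 transfrags whose mean level reached 10, beside 35 in the next. Of the 58, 12.1% rose only in LE, beside 2.69% of the mRNAs with a named homolog. Of the 14 that stayed within 1.5-fold from EE to ME, 7 rose, 3 were flat and 1 fell. Among the 311 such mRNAs with a named homolog, 13.5% rose. The rule used these changes and the list was chosen with earlier results of these data known, so the counts are a description. Among all 58, 16 rose from ME to LE (27.6%) and 4 fell (6.90%), where 10.4% of the mRNAs with a named homolog rose and 14.0% fell. The median log2 change from ME to LE was 0.42, beside 0.27 for the mRNAs with a named homolog. The count depends on the scaling, since none of the 58 reached 1.8-fold when levels were scaled by summed levels or by mapped reads, where 1.29% to 1.54% of the 4021 mRNAs did. With the median ratio of the mRNAs set to 1, 11 of the 58 rose (19.0%), beside 5.89% of the 4021.

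For the large ribosomal subunit, the NSA2 homolog had 460.0 in EE, 422 in ME and 859 in LE (2.03-fold from ME to LE). Nsa2 acts in maturing large subunit precursors in *S. cerevisiae*. Rlp24, a protein related to a ribosomal protein that holds its place on the precursor, had a homolog with 302, 233 and 547 (2.34-fold). Both homologs were somewhat lower in ME than in EE before they rose.

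For the small subunit, the LTV1 homolog had 521, 401 and 779 in EE, ME and LE (1.94-fold). Ltv1 accompanies the small subunit precursor during its assembly and export. The UTP23 homolog, a factor of early rRNA processing, had 211, 262 and 550 (2.09-fold), and it was the only 1 of the 7 beside the POL5 homolog whose level was higher in ME than in EE. The UTP25 homolog had 227, 160.15 and 316 (1.97-fold) on a transfrag of 50.6% of the gene, and the BUD21 homolog had 38.2, 26.4 and 61.7 (2.29-fold). Utp25 and Bud21 are components of the processome that cleaves the rRNA precursor in *S. cerevisiae*.

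The POL5 homolog, named DPO5_YEAST in the study's gene table, is related to a DNA polymerase by sequence and acts in rRNA synthesis in *S. cerevisiae*. The transfrag that rose only in LE had 144, 170.1 and 337 in EE, ME and LE (1.98-fold), and it spans 32.7% of the gene. Another transfrag of the same gene, at its start, rose 6.19-fold from EE to ME already, from 58.2 to 365, and then 2.09-fold to 763.

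**Figure D3:**
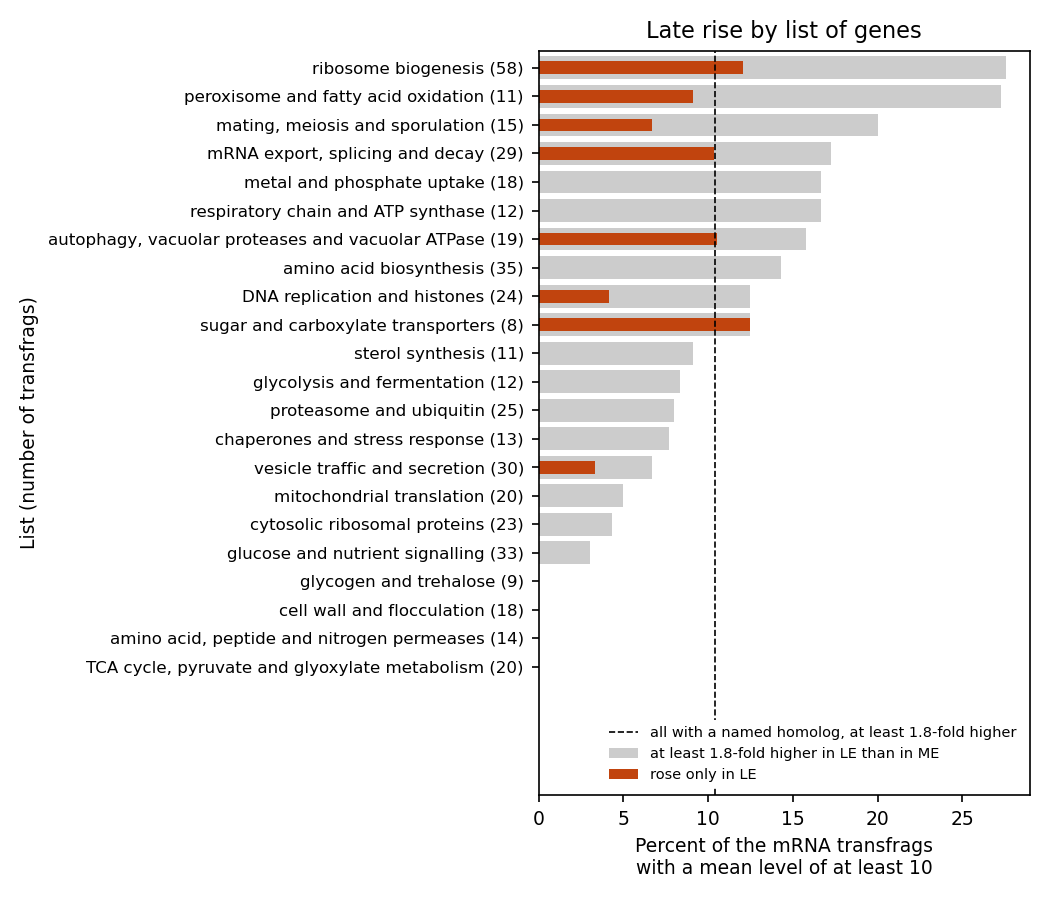
Percent of the mRNA transfrags of each list that rose from ME to LE (grey bars) and of those that rose only in LE (red bars). The transfrags counted had a mean level of 10 or more, and their number is given in brackets. The dashed line marks the 10.4% that rose among all mRNAs with a named homolog, and on the deposited scaling ribosome biogenesis stands at 27.6% and 12.1%, peroxisomes at 27.3% and 9.09%.

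In the list for mRNA export, splicing and decay, 3 of 29 transfrags (10.3%) rose only in LE, beside 2.69% of the mRNAs with a named homolog. They were the PRP3 and DCP2 homologs described above and the PRP40 homolog. Prp40 is part of the U1 snRNP, which recognizes the start of an intron, and its homolog had 538, 391 and 821 in EE, ME and LE (2.10-fold). Another 4 transfrags of the list were flat and 3 fell late. Of all 29, 5 rose from ME to LE (17.2%) and 6 fell (20.7%), so the list as a whole did not move one way. Among the mRNAs with a named homolog, 10.4% rose and 14.0% fell. The median log2 change from ME to LE over its 29 transfrags was 0.26.

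The list for autophagy, vacuolar proteases and the vacuolar ATPase held 2 of the 103 mRNAs among 19 transfrags, the subunit A homolog and the ATG27 homolog. This was 10.5%, beside 2.69% of the mRNAs with a named homolog. Atg27 is a membrane protein of the autophagy pathway, and its homolog rose 1.90-fold, from 717 and 699 in EE and ME to 1329 in LE. The median log2 change of the 19 transfrags from ME to LE was 0.05, with 3 that rose and 3 that fell (15.8% each). Of the mRNAs with a named homolog, 10.4% rose and 14.0% fell. The VPS21 homolog, a small GTPase of the route from endosome to vacuole, was listed under vesicle traffic. It had 172, 214 and 569 (2.65-fold). Of the 30 transfrags of that list, 2 rose from ME to LE (6.67%) and 6 fell (20%), beside the same 10.4% and 14.0%. Their median log2 change was -0.21.

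The other lists with a member held 1 each. The homolog of FOX2, the multifunctional enzyme of fatty acid oxidation in peroxisomes, had 934, 868 and 1844 in EE, ME and LE (2.12-fold) on a transfrag of 3297 bp that spans the whole gene. The list for peroxisomes had 11 transfrags, of which 3 rose from ME to LE (27.3%) and 2 fell (18.2%), beside 10.4% and 14.0% of the mRNAs with a named homolog. In the list for DNA replication and histones, 3 of 24 rose (12.5%) and 5 fell. In that for mating, meiosis and sporulation, 3 of 15 rose (20%) and 0 fell. Of the 8 sugar and carboxylate transporter transfrags, 1 rose (12.5%) and 1 fell. The GPA1 homolog, the alpha subunit of the G protein of the pheromone response, had 75.3, 90.4 and 185 (2.04-fold). The homolog of HGT1, a high-affinity glucose transporter of *Kluyveromyces lactis*, had 8.24, 11.0 and 21.96 (1.92-fold, counting SE of log2 0.28) on a transfrag that spans 29.8% of the gene, and reads of related transporter genes may have been placed on it, since the authors placed reads with several matches at random. No transfrag for cytosolic ribosomal proteins, glycolysis and fermentation, the TCA cycle, the respiratory chain, glycogen and trehalose, or chaperones and stress rose only in LE. These lists held 9 to 23 transfrags each, few beside a share of 2.69% among all named mRNAs.

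Among the other named homologs, beside those of INO80 and YJ66_YEAST above, the most abundant in LE was that of translation initiation factor eIF5B (IF2P_YEAST), which joins the ribosomal subunits at the start codon. It had 1281, 1055 and 2235 in EE, ME and LE (2.12-fold). The VNX1 homolog, an ion exchanger of the vacuolar membrane, had 772, 829 and 1703 (2.05-fold). The ESS1 homolog, a prolyl isomerase that acts on RNA polymerase II, had 549, 473 and 889 (1.88-fold).

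The homolog of AFG3, a subunit of a protease of the mitochondrial inner membrane, had 395, 357 and 756 in EE, ME and LE (2.11-fold). The homolog of YLH47, a protein of the same membrane, rose 1.95-fold, that of APP1, a phosphatidate phosphatase, 1.92-fold, and that of SHB17, sedoheptulose bisphosphatase of the riboneogenesis route, 1.804-fold. The homolog of VAN1, which takes part in mannan synthesis in the Golgi, kept 184 and 185 in EE and ME and then rose 2.76-fold to 513. It had the largest change of the 17 mRNAs whose transfrag spans at least 90% of the gene. The homologs of YAKA_SCHPO and YG51_YEAST rose 2.02-fold and 1.83-fold.

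For the 43 mRNAs in an annotated gene held here, the transfrag spanned at least 90% of the gene in 17 (39.5%) and less than 50% in 16 (37.2%). These shares were 40.9% and 40.2% for the flat mRNAs, and 31.7% and 46.3% for the mRNAs with a mean level of at least 10. Of the 6 mRNAs in such genes that rose at least 3-fold, 5 spanned less than 50% of the gene. The largest change was 2.76-fold on transfrags of at least 90% of the gene and 6.50-fold on those under 50%. The median changes were near each other, 2.04-fold and 2.02-fold. The transfrags under 50% had a lower median level in LE, 155 beside 859.

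The rule chose single transfrags, so the other transfrags of the same genes give a measure it did not use. Of the 43 genes, 19 held 2 or more mRNA transfrags, with 36 other transfrags, of which 22 in 16 genes had a mean level of at least 10. Of all 36, 6 rose from ME to LE (16.7%) and 10 fell, with a median log2 change of -0.09. Of the 22, which can pass the limit through a high LE level, the same 6 rose (27.3%) and 5 fell, with a median log2 change of 0.32. The same share was 10.2% for the transfrags that share a gene with any mRNA of a mean level of at least 10 (90 of 884) and 4.05% for those that share a gene with a flat mRNA (3 of 74). Under the 4 other scalings, which leave 4 to 7 such transfrags, 0 or 1 rose (0% to 16.7%), and with a LE over ME limit of 2 the count was 1 of 10. Under these scalings 1.29% to 5.89% of all mRNAs that passed the minimum mean level as deposited rose. The 4 to 7 transfrags are too few to be set beside these shares. When the levels of all transfrags of a gene were added, 13 of the 19 genes rose from ME to LE and 11 met the whole rule. These sums include the transfrag that the rule chose, so their course is fixed in part.

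The 6 that rose lay in 4 genes. Both other transfrags of the IOC3 homolog, a subunit of a chromatin remodelling complex, rose, by 2.02-fold and 2.56-fold. A transfrag of the homolog of RAD16, a DNA repair factor, rose 2.11-fold from 9.82 to 21.9, after 23.1 in EE. That of the POL5 homolog rose 2.09-fold as given above, and 2 of the gene of transfrag03114 rose 2.83-fold and 1.83-fold.

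In other genes the transfrags took opposite courses. The DCP2 homolog had 32.0, 36.6 and 6.69 in EE, ME and LE on a transfrag near its start, and 11.5, 8.85 and 63.0 on the one near its end. The MCM7 homolog had 18.3, 20.5 and 3.44 on a transfrag in the second part of the gene, where the transfrag at its end rose to 93.0. For the homolog of STU1, a microtubule-binding protein, a transfrag of the second part of the gene fell from 54.5 in EE and 13.6 in ME to 3.25 in LE, and the transfrag at its end rose 3.08-fold from 67.3 in ME to 210 in LE. In these genes the summed levels changed 1.504-fold, 2.12-fold and 2.58-fold from ME to LE.

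The glycyl-tRNA synthetase homolog differed in a milder way. Its first transfrag, of 43.2% of the gene, had 206, 508 and 811 in EE, ME and LE, so that it rose 2.46-fold to ME and then 1.59-fold. The second transfrag, of 35.5% of the gene, fell to ME and then rose 5.32-fold. Added together, the gene had 723, 867 and 2723 and met the rule. For the eIF5B and INO80 homologs the other transfrags held little of the level, 7.90 of 2243 for the first in LE.

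**Figure D4:**
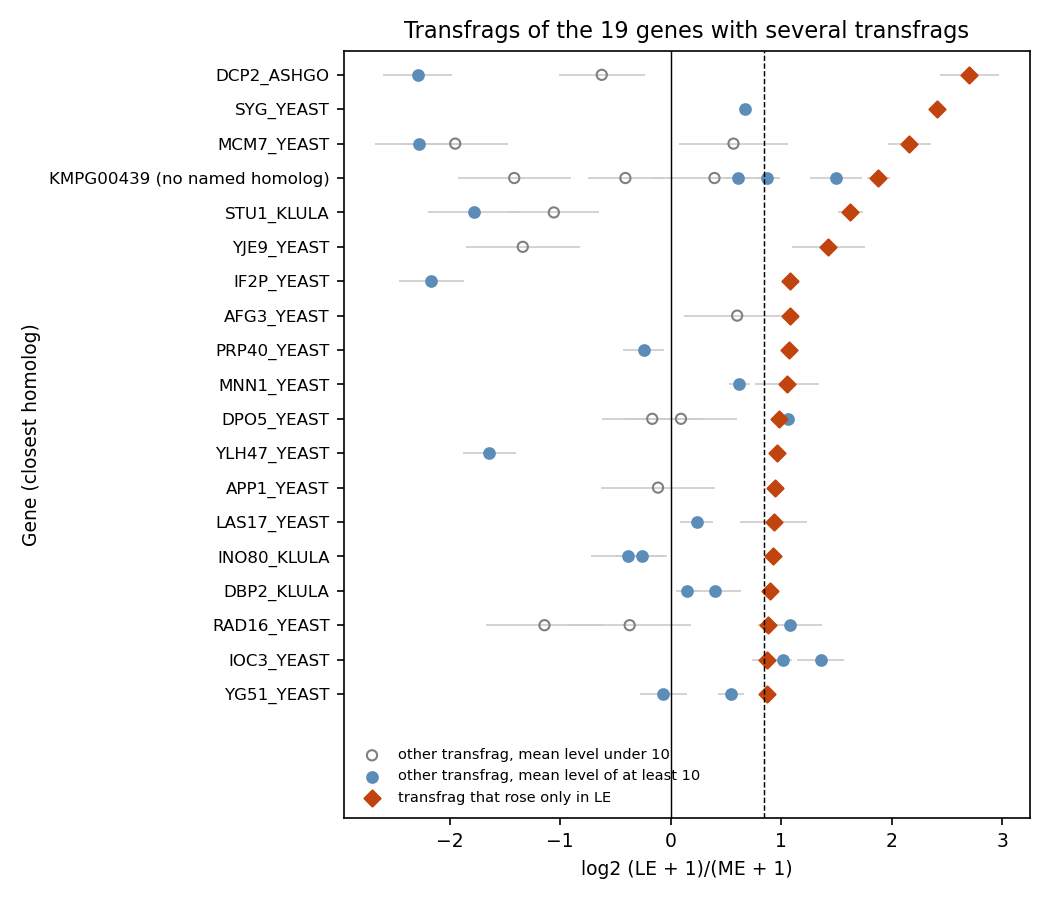
Change from ME to LE, as log2 of (LE + 1)/(ME + 1), of every mRNA transfrag of the 19 genes that hold a transfrag that rose only in LE and at least 1 other. Red diamonds mark the transfrags that rose only in LE, blue points the 22 others with a mean level of at least 10, open circles those under 10, bars the counting SE, and the dashed line 1.8-fold. The DCP2, MCM7 and STU1 homologs have transfrags on both sides of 0.

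On the opposite strand, 47 of the 103 mRNAs overlapped at least 1 long antisense ncRNA (lancRNA), 45.6% with an exact 95% binomial interval of 35.8% to 55.7%. The share was 51.8% for the flat mRNAs, 18.7% for the late-falling mRNAs and 43.0% for the 4021 mRNAs with a mean level of at least 10. The interval takes the transfrags as independent draws, which they may not be, and holds no spread between libraries, so the shares were not tested. As deposited, the share of the 103 mRNAs lay between those of the 4021 and of the flat mRNAs, and above that of the late-falling mRNAs. This order depends on the scaling, since 2 of 25 (8%), 4 of 26 (15.4%) and 2 of 12 (16.7%) of the mRNAs that rose only in LE had an opposite lancRNA with levels scaled by the summed level, by that without the 100 highest transfrags and by mapped reads. The late-falling mRNAs then had 16.2% to 19.3% and the flat mRNAs 59.8% to 63.6%. Where a lancRNA had to cover at least 50% of the mRNA, the share was 14.6% for the 103, 15.3% for the flat, 4.22% for the late-falling and 14.3% for the 4021 mRNAs. Short antisense ncRNAs (sancRNAs) lay opposite 37 (35.9%), beside 32.4% of the 4021. The late-falling mRNAs were also rarer and shorter, with a median EE level of 34.5 and a median length of 726 bp, beside 209 and 866 bp for the 103.

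The 65 lancRNAs opposite these mRNAs were near their ME level in LE at the median on the deposited scaling, and below it under the 4 other scalings (median log2 changes of -0.46 to -0.07). These scalings lower the log2 change of any transfrag, with shifts of -0.54 to -0.13, so the lower medians are not particular to the 65 lancRNAs. As deposited, their median log2 change from ME to LE was 0.06, beside 0.12 for the lancRNAs opposite flat mRNAs and 0.07 for all lancRNAs, and their median counting SE was 0.30. Of the 65, 6 rose (9.23%) and 11 fell (16.9%), where 11.0% of all lancRNAs rose and 14.9% fell. Among the 35 with a mean level of at least 10, 5 rose and 5 fell (14.3% each), beside 12.2% and 8.03% of all lancRNAs of such levels. From EE to ME, when their mRNAs were chosen to be constant, the median log2 change was 0.69 for the 65, beside 0.24 for all lancRNAs. For the 35 it was 1.87, beside 1.07 for all lancRNAs of such levels, a limit that lancRNAs low in EE can pass through ME and LE. The lancRNA level was mostly low, with a median of 1.47% of that of the mRNA in LE, and it was above the mRNA in 3 of the 65 pairs.

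Of the 5 pairs with the highest lancRNA level in LE, the first was transfrag24880, an mRNA of 450 bp with 19.1, 28.5 and 53.7 in EE, ME and LE. A lancRNA of 4757 bp covers all of it, with 1760, 2914 and 5207, and rose 1.79-fold from ME to LE when the mRNA rose 1.86-fold. The mRNA was far below its lancRNA in each growth phase, and the part of reads assigned to the wrong strand in its level was not tested.

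The FOX2 homolog lies within a lancRNA of 3466 bp with levels of 370, 702 and 1273 in EE, ME and LE, which rose 1.81-fold from ME to LE. In LE this lancRNA had 69.1% of the level of the mRNA. A lancRNA over 99.5% of transfrag19813 took another course, with 2943 in EE, 421 in ME and 438 in LE, so that it was above the mRNA (2064, 1753 and 3475) in EE and at 12.6% of it in LE. The most abundant lancRNA opposite transfrag16639 had 23.25, 151 and 294 in EE, ME and LE, a 1.94-fold rise from ME, and that opposite transfrag24451 had 10.8, 121 and 244, a 2.01-fold rise.

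**Figure D5:**
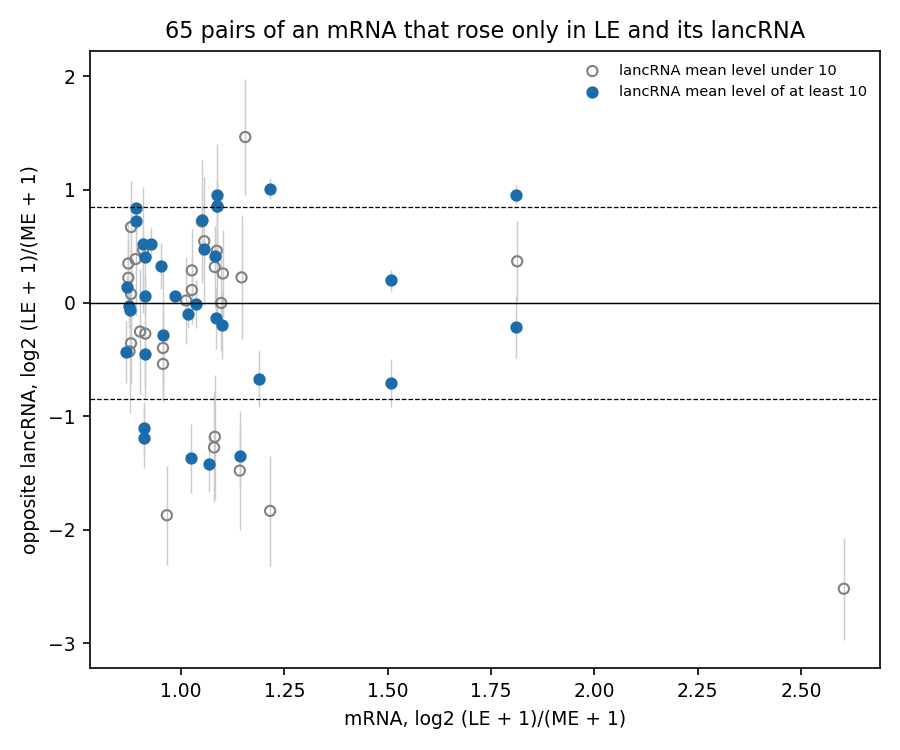
Change from ME to LE of the 65 lancRNAs (y axis) against that of the mRNA opposite (x axis), both as log2 of (LE + 1)/(ME + 1), with bars for the counting SE of the lancRNA and 1 point per pair. Filled points are lancRNAs with a mean level of at least 10, the dashed lines mark 1.8-fold, and the lancRNAs lie on both sides of 0, from -2.52 to 1.46.

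The 103 mRNAs were spread over 11 contigs and both strands, 51 on plus and 52 on minus. Only 1 pair of them were nearest neighbours, transfrag22727 and transfrag22729 on contig 112, which lie 1435 bp apart on the same strand. The nearest mRNA transfrags on either side, where they had a mean level of at least 10, counted 152, of which 17 rose from ME to LE (11.2%) and 15 fell (9.87%). A neighbour on the same strand can be another transfrag of the same gene, as described above, since these were not left out. Among the neighbours of all 4021 mRNAs, 10.6% rose and 12.5% fell. For neighbours that start away from the mRNA (divergent), 8 of 35 rose (22.9%), beside 12.2% of the divergent neighbours of the 4021 mRNAs and 14.0% of those of the flat mRNAs. Under the 4 other scalings 0 to 3 of these 35 reached 1.8-fold (0% to 8.57%), beside 0.71% to 6.39% for the 4021 mRNAs. In the other orientations fewer rose. These were 2 of 24 neighbours that end towards the mRNA (8.33%), and on the same strand 4 of 47 downstream (8.51%) and 3 of 46 upstream (6.52%).

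The mRNAs next to the limits show how sharp the group is. Just inside the limit of 1.8-fold were transfrag31516 (273 in ME and 493 in LE, 1.801-fold) and the SHB17 homolog, and just outside was a homolog of CTR1 with 14404 in ME and 25891 in LE (1.797-fold). Within 5% of that limit, 24 mRNAs lay inside and 32 outside. At the upper limit of ME over EE, transfrag18634 (1.490) was inside and transfrag18250 (1.516) outside, although the latter rose 2.34-fold from ME to LE. At the lower limit, transfrag22727 (0.676) was inside and transfrag16802 (0.666) outside, with 20.7, 13.5 and 76.1 in EE, ME and LE. By mean level, transfrag29419 was the last inside, with 10.2, and transfrag19937 the first outside, with 9.07.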

How the data were processed

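The authors mapped strand-specific reads to the assembly's contigs with the CLC genomics workbench, placing reads with several matches at random, merged overlapping reads across growth phases to define transfrags, cut these at gene boundaries and scaled them with DESeq (the submitters' notes also name CASAVA 1.4). The deposited signal is 1 normalized level per transfrag and growth phase, the mean over 2 libraries. Tests had been planned for counts per library. The table holds this other unit, so none was made. RNA classes and positions are the deposited ones, and no sequence was used. Homolog names came from the study's gene table, of which 1998 genes were held (e-value of at most 1e-10).

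The members and gene lists were chosen with earlier results of these data known. Changes are ratios of levels plus a pseudocount of 1. Pairs overlap by at least 1 bp on opposite strands, and neighbours are the nearest mRNA transfrags, of the same or another gene, that do not overlap. Counting errors came from the steps that low levels form, each worth 1 read of 1 library. These steps were 0.707 and 1.33 for the EE libraries, 0.271 and 0.364 for ME, and 0.294 and 0.397 for LE. Of the 8160 EE levels of at most 12, 99.7% were sums of whole steps. A count of 3 reads is a level of at most 4.00 in EE, 1.09 in ME and 1.19 in LE.

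Named were the 10 mRNAs with the highest LE level and the 10 with the largest change, all on a list, 10 further named homologs with the highest LE level, the 5 pairs with the highest lancRNA level in LE and the mRNAs next to each limit. Genes with several transfrags (IOC3, RAD16 and STU1 homologs) and neighbouring members were named after their values were seen. Chosen after seeing the data were the EE levels of single libraries and the lancRNA shares of the other courses under other settings. The other alternatives were other pseudocounts, limits, overlaps and scalings, 1 of them by the mapped reads that the study lists for each library. The functions were tested on simulated data. Python 3.11.15, NumPy 2.4.6, pandas 2.3.3, SciPy 1.17.1 and Matplotlib 3.10.9 were used.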

Additional observations from a re-analysis of the deposited data

How the results depend on the processing

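The 103 mRNAs depend on the limits and above all on the scaling. With a LE over ME limit of 1.5 or 2 there were 240 or 64 mRNAs, and with a ME over EE limit of 5/4 or 2 there were 58 or 171. With levels scaled by the summed level there were 25 (21 of the 103), by the summed level without the 100 highest transfrags 26 (25 of the 103), by the median ratio of the mRNAs 50 (22 of the 103) and by mapped reads 12 (none of the 103). The 8 other alternatives gave 91 to 107. In this order of scalings without the median ratio, the share with an opposite lancRNA was 8%, 15.4% and 16.7%, and it was 56.7% with a LE over ME limit of 1.5 and 14.6% where a lancRNA had to cover 50% of the mRNA. The median log2 change of the opposite lancRNAs was -0.64, -0.42 and -0.94 under these scalings, for the 3, 6 and 2 lancRNAs that remained. The share of other transfrags of the same genes that rose was 10.0% with a LE over ME limit of 2, 0% with mapped reads (of 4), 14.3% to 16.7% under the other scalings (of 6 or 7), 16.7% with a pseudocount of 5 and 40.0% with a ME over EE limit of 5/4. The share of neighbours that rose was 33.6% and 4.17% with a LE over ME limit of 1.5 and 2, 0% under these 3 scalings and 1.37% with the median ratio. Of all mRNAs that passed the minimum mean level as deposited, 1.29% to 1.54% rose under these 3 scalings and 5.89% with the median ratio. A share of 0% among the 19 to 33 neighbours that remained is thus near that of all mRNAs. The 4 to 7 other transfrags of the same genes are too few for such a comparison. No share of all mRNAs is given for the limits of 1.5 and 2. The limits act by construction, and so do the scalings, which multiply all levels of a growth phase by the same factor. Any other cause was not tested. No paired analysis was possible because the deposited levels are means over both libraries, and leaving out single replicates was not run for the same reason, except for the 11 mRNAs whose EE level splits into reads, of which 6 and 7 stayed within the ME over EE limits with 1 EE library alone. Depth limits the mRNAs of low level most in EE, where 1 read is worth a level of 0.707 or 1.33.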
